A study of Mus musculus with 2 samples.

Results

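Transcripts of 10 transcription factor genes, Batf, Irf4, Irf8, Jun, Junb, Jund, Fos, Fosb, Fosl2 and Atf3, were compared between regulatory T cells (Tregs) of mice with a dominant negative form of TGF-beta receptor II (DNR) and Tregs of wild-type (WT) mice. They were chosen by name as BATF, IRF and AP-1 factors of T cells, with earlier results of these data known. All probe sets that the platform annotation gives to exactly 1 of them were taken, which made 15 probe sets of 45037 and 10 genes of 18193. All cells were CD4+Foxp3+ Tregs sorted by flow cytometry from spleens of naive C57BL/6 mice at 10 weeks of age, with 1 Affymetrix array of DNR Tregs and 1 of WT Tregs. The DNR mice carry the mutant receptor, which interferes with TGF-beta signalling, and the WT mice do not; the sources used here do not name the promoter that drives it, the number of mice behind each RNA or the reporter or stain used to sort on Foxp3. The sorting text of both arrays names DNR mice, and the WT array is WT by its title, source and genotype labels.

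AP-1 is a family of dimers of basic leucine zipper (bZIP) proteins in which a JUN protein pairs with another JUN, with a FOS protein or with an ATF or BATF protein. JUN and FOS genes are immediate early genes: antigen receptor signals raise their transcripts quickly and through kinases that act on factors already present. BATF has no activation domain of its own and binds DNA with a JUN partner, and in T cells the BATF-JUN dimer recruits IRF4 or IRF8 to composite DNA elements. BATF and IRF4 are known to be needed for the differentiation of effector Tregs.

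The arrays measured transcripts and not promoters, and the promoter windows are shown because several of these genes are known to be regulated by AP-1 itself. RefSeq (GRCm38.p6) gave a start site for 10 of 10 genes. Each window covers the 250 bases before the start, 5′ to 3′ on the strand of the gene. Those printed belong to Jun, the member furthest below an equal signal (chr4:95052223-95052472, minus strand), Batf, the member furthest above it by brightest probe sets, though not by the median over probe sets (chr12:85686470-85686719, plus strand), Irf4, the partner of BATF (chr13:30748983-30749232, plus strand), and Fos, whose probe set was nearly equal (chr12:85473640-85473889, plus strand). Capitals mark matches to the motifs searched.
Jun: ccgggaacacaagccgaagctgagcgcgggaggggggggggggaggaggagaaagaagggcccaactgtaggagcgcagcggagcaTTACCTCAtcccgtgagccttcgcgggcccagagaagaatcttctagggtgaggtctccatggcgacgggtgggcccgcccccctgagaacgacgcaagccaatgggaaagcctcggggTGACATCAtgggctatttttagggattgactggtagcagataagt
Batf: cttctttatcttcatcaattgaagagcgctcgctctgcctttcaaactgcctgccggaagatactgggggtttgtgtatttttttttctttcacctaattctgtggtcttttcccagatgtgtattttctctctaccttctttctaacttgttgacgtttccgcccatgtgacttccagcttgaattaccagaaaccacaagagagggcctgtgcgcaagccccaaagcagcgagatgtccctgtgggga
Irf4: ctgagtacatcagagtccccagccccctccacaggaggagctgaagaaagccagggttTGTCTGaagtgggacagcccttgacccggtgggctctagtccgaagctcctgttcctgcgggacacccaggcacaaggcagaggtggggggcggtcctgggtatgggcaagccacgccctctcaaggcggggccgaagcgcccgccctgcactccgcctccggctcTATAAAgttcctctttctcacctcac
Fos: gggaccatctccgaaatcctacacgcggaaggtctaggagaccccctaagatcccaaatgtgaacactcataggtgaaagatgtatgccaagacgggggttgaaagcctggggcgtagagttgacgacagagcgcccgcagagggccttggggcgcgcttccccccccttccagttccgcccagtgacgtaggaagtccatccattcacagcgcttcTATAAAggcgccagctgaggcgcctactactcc
The motifs were searched on both strands as exact letters and none of the matches in these windows overlap. They were the AP-1 element TGACTCA, the cAMP response element TGACGTCA, the AP-1-like elements TGACATCA and TTACCTCA known from the Jun promoter, the CArG box bound by serum response factor, the SMAD element CAGACA, the STAT element TTCNNNGAA and the TATA box as TATAAA. Jun held both AP-1-like elements, TGACATCA from 45 to 38 bases before the start and TTACCTCA from 164 to 157 bases before it. Of all 32851 windows of this length 2.93% held the first and 0.728% the second. Irf4 held a SMAD element on the minus strand (192 to 187 bases before the start) and a TATA box, which 17.1% and 12.4% of windows held, and Fos held a TATA box. Of the windows not printed, the first of the 2 Irf8 windows held 2 STAT elements, which 7.02% of windows held at least once, and a TATA box. The windows of Batf, Junb, Jund, Fosb, Fosl2 and Atf3 and the second Irf8 window held no match, which says only that these letters are not in those bases. A match is a description of the sequence and not a measured binding site.

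Each value is a MAS5 signal on a linear scale, a single number drawn from all perfect-match and mismatch probes of the set. Both arrays had a mean of 500 after the highest and lowest 2% of signals were left out. A floor of 110.9, the higher of the 2 array medians, was applied before ratios were taken, and a ratio against the floor is a lower bound, written "at least". It was the median of the DNR array, and that of the WT array was 91.0. Taking the brightest probe set of each gene, 1813 genes were above the floor on the DNR array only and 833 on the WT array only. Dim signals thus passed the floor more often on the DNR array. Ratios are log2 of DNR over WT. There was 1 array per genotype and so no replicate check, no test and no p-value; differences are between these RNA samples. The only error that could be estimated was how far probe sets for one gene disagreed, a robust SD of 0.36 in the log2 ratio (1.29-fold) over 3968 genes, which holds no variation between mice, sorts or hybridisations. Signals of different genes do not rank their transcript levels, since probe sets differ in affinity; a gene called brightest has the highest signal of its list, and summed signals of a list are set only against the same sum on the other array. In RNA of a sorted population, fewer cells that express a gene and less RNA per cell cannot be told apart.

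All 10 genes were above the floor on both arrays. The members did not all differ in one direction: the 3 JUN genes had lower signals in DNR Tregs, and the 7 others had higher signals. Of all genes above the floor on both arrays, 46.5% had higher signals in DNR Tregs. Jun had the widest gap, at almost 2-fold lower, and each of the other 9 genes differed by less than 1.5-fold on its brightest probe set. No member reached the 2-fold threshold in either direction (0 higher and 0 lower). Over the 11927 measured genes, those above the floor on at least 1 array, 4% were at least 2-fold higher and 2.93% at least 2-fold lower, so a list of 10 genes holding none is near the background. At 1.5-fold 0 of the 10 were higher and 1, Jun, was lower, against a background of 12.8% and 9.85%. The median log2 ratio of the members was 0.10, with a range from -0.999 to 0.49. For all measured genes the median was 0.014, and for those above the floor on both arrays, as all members were, it was -0.029. For 6 of the 10 the log2 ratio was smaller in size than the robust SD between probe sets.

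**Figure D1:**
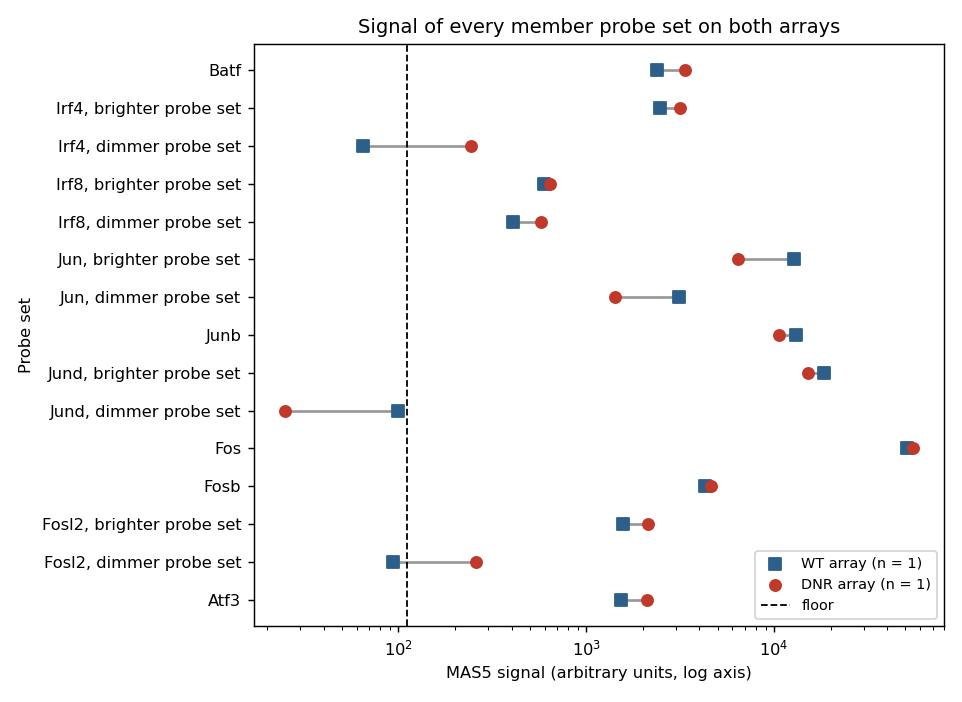
MAS5 signal (log axis, arbitrary units) of all 15 member probe sets on the DNR array (circles) and the WT array (squares), 1 array each, with a dashed line at the floor of 110.9. Both Jun probe sets lie lower on the DNR array, the Fos and Fosb points nearly coincide, and the dimmer Jund probe set is below the floor on both arrays.

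Among the JUN proteins, the obligate core of most AP-1 dimers, Jun encodes c-Jun. Its brighter probe set read 6394 in DNR and 12780 in WT Tregs, and the dimmer one had 1422 and 3100. Both probe sets were thus lower in DNR Tregs and by a similar factor: the brighter by 1.999-fold (log2 ratio -0.999), just short of the threshold, and the dimmer by 2.18-fold (-1.12). Among 9281 genes that exceeded the floor in both genotypes, 2.80% had a lower ratio than Jun. Over the alternative settings the log2 ratio of Jun ranged from -0.96 to -1.06. It passed 2-fold in 2 of 7, with quantile scaling and with the median over its probe sets. The floor alternatives and the omission of probe sets shared between transcripts left the ratio of Jun unchanged.

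Junb encodes a JUN protein that pairs with BATF in T cells, and its signal was 10557 on the DNR and 13101 on the WT array. Jund, whose product is the JUN protein present at rest in many cells, had 15214 and 18474. Both were slightly lower in DNR Tregs, by 1.24-fold (log2 ratio -0.31) and 1.21-fold (-0.28), which is within the disagreement between probe sets. The second probe set of Jund was below the floor on both arrays (24.98 and 99.7) and gives no ratio. The log2 ratio of Junb lay 0.69 and that of Jund 0.72 above that of Jun. Any single scaling factor between the arrays cancels in such a difference, whose robust SD from disagreement between probe sets alone is 0.51, so both gaps were below 1.5 times that error.

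The FOS genes encode proteins that cannot pair among themselves and need a JUN partner. The signal of Fos, the prototype immediate early gene, was 54911 on the DNR and 51176 on the WT array. Fosb had 4603 and 4305. Both were nearly equal between the genotypes, with log2 ratios of 0.10 (1.07-fold higher in DNR for each). In its ratio Fos stood 2.14-fold above Jun, a log2 difference of 1.10 beside the same robust SD of 0.51. Fosl2, which encodes Fra-2, had 2142 against 1561 on its brighter probe set, 1.37-fold higher (0.46). Its dimmer probe set had 259 in DNR Tregs and 93.7, below the floor, in WT Tregs, at least 2.33-fold higher. Both Fosl2 probe sets therefore pointed the same way but differed in size.

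Batf, the factor that opens chromatin for effector programmes in T cells, had 1 probe set, with 3350 in DNR and 2389 in WT Tregs. Its signal was 1.40-fold higher in DNR Tregs (log2 ratio 0.49), a value that 87.8% of genes above the floor on both arrays did not reach. Atf3, a stress-induced bZIP factor that often acts as a repressor, likewise had 1 probe set, with 2116 and 1522, 1.39-fold higher (0.48). By brightest probe sets these were the highest ratios among the members, but with the median over probe sets Fosl2 (0.84) and Irf4 (0.74) stood above both. The ratios of Batf and Atf3 were larger than 1 robust SD between probe sets and smaller than 2 of them. The ratio of Batf stood 2.80-fold and that of Atf3 2.78-fold above that of its possible partner Jun.

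The IRF proteins bind composite elements together with BATF and JUN. Irf4, induced by antigen receptor signals, had 3155 in DNR and 2469 in WT Tregs on its brighter probe set, 1.28-fold higher (log2 ratio 0.35). The dimmer Irf4 probe set had 243 and, below the floor, 64.8, at least 2.19-fold higher. With the median over its probe sets the log2 ratio of Irf4 was 0.74, and that of Fosl2 was 0.84, so for both genes the size rests on the choice of probe set. Irf8, best known from dendritic cells, macrophages and B cells and also made by T cells, had 639 against 597 on the brighter probe set and 571 against 409 on the dimmer. Both Irf8 probe sets were a little higher in DNR Tregs, with log2 ratios of 0.10 and 0.48.

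**Figure D2:**
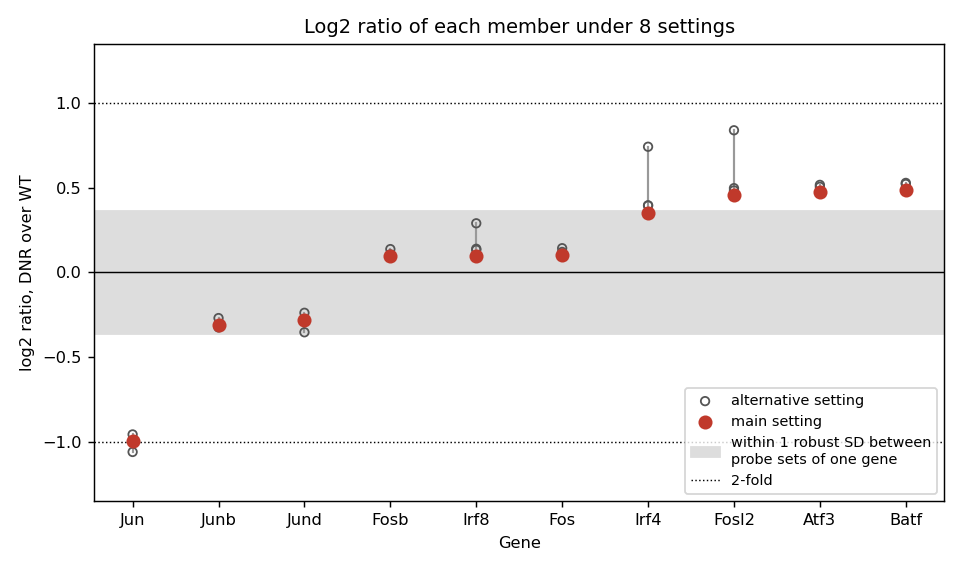
Log2 ratio of DNR over WT for each member in the main setting (filled) and under 7 alternative settings (open), with a grey band of 1 robust SD (0.36) between probe sets of one gene and dotted lines at 2-fold. Jun lies at the lower 2-fold line under every setting run, and Irf4 and Fosl2 move most, to 0.74 and 0.84.

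No member changed sign under the 7 alternatives for floor, probe set choice and scaling. The floor alternatives and the omission of probe sets shared between transcripts left every member's ratio unchanged, so only the others could change a sign. Taking all member probe sets above the floor on at least 1 array, 10 were higher in DNR Tregs and 4 lower, and the 4 were both Jun probe sets and 1 each of Junb and Jund. The 2 probe sets of 2-fold or more in the higher direction were the dimmer ones of Irf4 and Fosl2, each given as a bound, and the 1 in the lower direction was the dimmer Jun probe set. Over all 20764 measured probe sets with 1 gene name, 3.93% were at least 2-fold higher and 3.30% at least 2-fold lower.

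**Figure D3:**
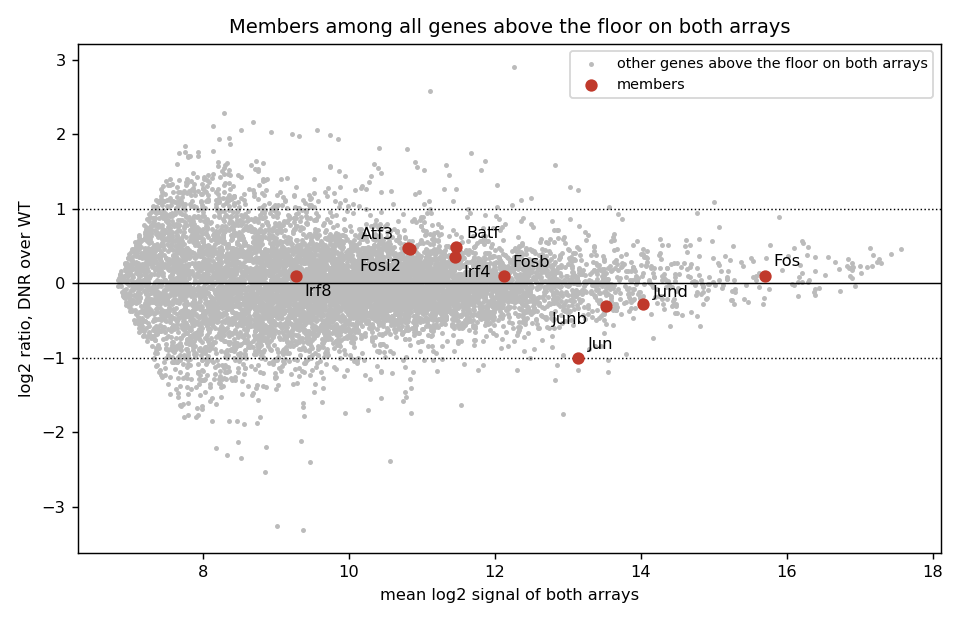
Log2 ratio of DNR over WT against mean log2 signal of both arrays for 9281 genes above the floor in both genotypes (grey) and the 10 members (red), with dotted lines at 2-fold. Jun lies at -0.999, next to the lower 2-fold line, and the 9 other members lie between -0.31 and 0.49.

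The remaining bZIP genes of the ATF, MAF, BACH, CREB and related groups also went both ways. Of 20 measured genes out of 24 on the array, 8 were higher and 12 lower, with a median log2 ratio of -0.12. The 1 gene at least 2-fold higher was Maf, which encodes c-MAF, a regulator of interleukin-10 (8586 in DNR against 3875 in WT, 2.22-fold). Its 4 other probe sets above the floor were higher by 1.37-fold to 1.93-fold, and with the median over its probe sets its log2 ratio was 0.79. None was at least 2-fold lower. Batf2, Batf3, Fosl1 and Atf7 were below the floor on both arrays. Bach2, a repressor that competes for AP-1 sites and holds T cells in a resting state, had 1675 against 3003 (1.79-fold lower), and Nfil3, a bZIP repressor, 5691 against 3391 (1.68-fold higher); both are named after their values were seen. Of 6 measured other IRF genes 4 were higher and 2 lower, none by 2-fold, and Irf1, an interferon-induced activator, had 19179 against 15724 (1.22-fold higher).

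Most genes of the MAP kinase, serum response factor and NFAT lists were lower in DNR Tregs, by less than 2-fold on their brightest probe sets except for Rcan1. For comparison, 46.5% of all genes above the floor on both arrays were higher in DNR Tregs. Of 11 measured MAP kinase pathway genes 9 were lower and 2 higher, none by 2-fold (median log2 ratio -0.27). With the median over probe sets 7 were lower and 4 higher. Mapk14, the stress kinase p38 alpha, had 3103 in DNR and 4105 in WT Tregs. Its second-brightest probe set went the other way (432 against 202). Serum response factor and its partners drive immediate early promoters, and all 5 measured genes of the 6 listed were lower, none by 2-fold (median -0.45). Among them Elk4, a ternary complex factor, had 4256 against 6394, 1.502-fold lower. When probe sets shared between transcripts were left out, 2 of the 5 were at least 2-fold lower, Elk4 (242 against 628, 2.60-fold) and Srf, serum response factor itself (210 against 439, 2.09-fold), each on a dimmer probe set. NFAT proteins bind DNA with AP-1, and their list also holds calcium regulators, so it is not a list of genes upstream of AP-1. Of 10 measured NFAT and calcineurin genes 7 were lower and 3 higher (median -0.21, or -0.03 with the median over probe sets). In the main setting 1 of them was at least 2-fold lower, Rcan1, a calcineurin inhibitor that NFAT induces (158 against 434, 2.74-fold). Without probe sets shared between transcripts Rcan1 had no probe set left. In that setting 0 genes of the list were at least 2-fold lower and 1 was at least 2-fold higher. This was Nfat5 on a dimmer probe set (338 against 157, 2.16-fold).

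Other immediate early genes, which respond to antigen receptor signals and also to handling of cells, showed no common direction. Of 23 measured genes 11 were higher and 12 lower in DNR Tregs, with a median log2 ratio of -0.013; with median scaling 14 were higher and 9 lower. Dusp2, a nuclear MAP kinase phosphatase, was the 1 gene at least 2-fold different (8403 against 17133, 2.04-fold lower), and with median scaling it was just under 2-fold (-0.99). Of the genes named after their values were seen, Egr1 was nearly equal (10317 against 10501), Nr4a1, an early reporter of antigen receptor signals, was 1.66-fold lower (14195 against 23593), and its relative Nr4a2 was 1.53-fold higher (15523 against 10139). The heat shock genes had a median of 0.21 over 9 measured genes, which was -0.30 once probe sets shared between transcripts were left out; Hspa8, the brightest, had 90409 against 69459 and turned to -0.45 in that setting. The part of handling in the values of Jun, Fos and Atf3 was not tested.

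**Figure D4:**
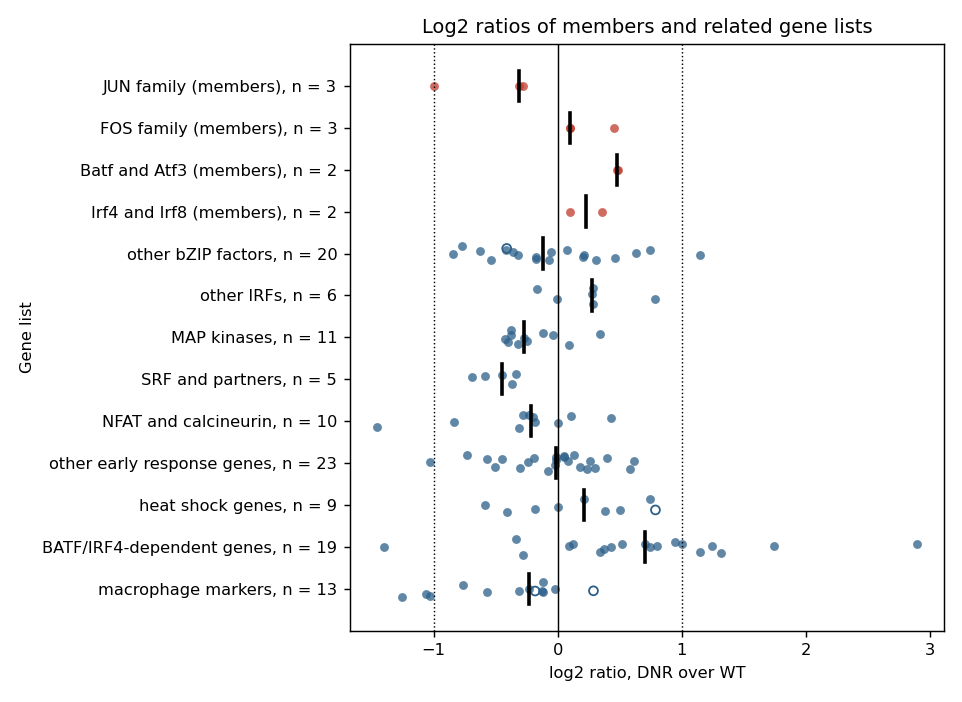
Log2 ratio of DNR over WT for every measured gene of the member families (red) and of 9 further lists (blue), with black bars at list medians, open circles for bounds and dotted lines at 2-fold. The JUN genes lie to the left of 0 and the FOS, BATF, ATF and IRF members to the right, while the genes listed as BATF/IRF4-dependent reach furthest to the right.

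Genes of effector Tregs that were listed as dependent on BATF or IRF4 differed more than the factors themselves, and that dependence was not tested here. Of 19 measured genes 16 were higher in DNR Tregs, 5 of them by at least 2-fold, and 1 was at least 2-fold lower, with a median log2 ratio of 0.70. Over all measured genes 4% were at least 2-fold higher and 2.93% at least 2-fold lower, and 46.5% of genes above the floor on both arrays were higher. Gzmb, the protease granzyme B, was 7.46-fold higher (13369 against 1793) and Cxcr3, a chemokine receptor, 3.35-fold (5954 against 1780). The other 3 were Prdm1, which encodes the repressor BLIMP-1 (690 against 277, 2.49-fold), Klrg1, a receptor of terminally differentiated cells (2.37-fold), and Maf. The lower gene was Itgae, which encodes CD103 and is known as a TGF-beta-induced gene (1134 against 2999). The list was drawn up with earlier results of these data known, Ctla4, Ikzf2 and Tnfrsf18 in it also belong to the Treg list and Maf and Nfil3 to the bZIP list, so its median is no independent support for a role of the factors.

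Foxp3 itself, the defining gene of the sort, had 4550 in DNR and 3754 in WT Tregs, and of 9 measured pan T cell genes none differed by 2-fold (median 0.08; Cd3d 31996 against 30370). Of 10 measured Treg genes Nt5e and Izumo1r were at least 2-fold lower in DNR Tregs and none higher; the second probe set of Nt5e was at 0.10, and Izumo1r was just under 2-fold in 2 of 6 alternatives. Irf4 and Irf8 are also made by other cells, so the markers of those cells were read beside them. B cell markers were measured in 6 of 11 genes, 5 of them higher (median 0.36). Ighm had 19368 against 15236, Cd79b 869 against 666, Cd22 444 against 162 and Spib 136 against 126. The other Cd22 probe set was below the floor on both arrays (14.6 in DNR and 32.3 in WT Tregs). Fcer2a was above the floor on the DNR array only (170 against 104) and Ms4a1, the lower gene, on the WT array only (76.4 against 126). Pax5, Ebf1, Cd79a, Blnk and Cr2 were above it on neither. The summed signal of the B cell markers, most of it from Ighm, was 21273 on the DNR and 16512 on the WT array. Of the plasma cell markers Xbp1, which T cells also express, was the brightest (8270 against 9333), and 4 of 6 were measured.

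Dendritic cell markers were measured in 5 of 9 genes, with a summed signal of 4093 against 4449. Cst3 had 2800 against 2559 and Bst2 531 against 761. Ccr9, which T cells express too, was 2.27-fold lower (1.43-fold on its next probe set). Siglech and Itgax were above the floor on the DNR array only, and Xcr1, Flt3, Zbtb46 and Cd209a on neither array. Macrophage markers were measured in 13 of 15 genes and 12 were lower in DNR Tregs, C1qa, C1qc and Vcam1 by at least 2-fold. Their summed signal was 5222 against 7077, and Csf1r, the brightest, had 1449 against 1799. Over all measured genes 2.93% were at least 2-fold lower and 4% at least 2-fold higher, and 46.5% of genes above the floor on both arrays were higher. Neutrophil markers were measured in 4 of 10 genes, and 3 were at least 2-fold higher at signals of 537 or less (median log2 ratio 1.37), with a summed signal of 1476 against 707. These were Mmp9 and, as ratios against the floor, Ngp and S100a8. At a floor of the 60th percentile their median was 0.78 and Mmp9 was the 1 gene left at 2-fold. CD8 T and NK cell markers were measured in 6 of 8 genes at signals of 416 or less, Eomes being the brightest, with a summed signal of 1351 against 1262. Of the erythroid markers only Klf1 was above the floor, on the DNR array (116). The part of these cells in the values of Irf4, Irf8 and the other members was not tested.

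As to the arrays, the DNR array was brighter for all 18 hybridisation spike-in probe sets (median 1.95-fold) and for 20 of 24 poly-A spike-in probe sets (median 1.30-fold over the 24). The ratio of 3′ to 5′ signal, a measure of RNA integrity and labelling, was 2.28 for Gapdh on the DNR and 2.07 on the WT array, and 6.31 and 4.98 for beta-actin. Their part in the members' ratios was not tested.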

How the data were processed

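One RNA sample each of DNR and WT splenic Tregs was hybridised to an Affymetrix mouse array. The authors deposited 1 signal intensity per probe set and array, made with MAS5 per the submitters' processing notes; the sources state neither its version nor the scaling target, and detection calls were not used. Of 45101 probe sets 64 controls were set aside. The platform annotation gave exactly 1 gene to 34945 of the remaining 45037 and several to 932; Entrez identifiers updated 0 symbols. Signals below 110.9 (the higher array median, percentile 50) were set to it, log2 ratios of DNR over WT were taken, and each gene was represented by its brightest probe set. This left 11927 measured genes, 9281 of them above the floor on both arrays. A gene was called by a fold of 2. The steps were tested on simulated data, with fold changes set in bright genes that were larger than those of the members' brightest probe sets. Named were all members, from each other list at most 2 genes that differed most, if by 2-fold or more, or else the brightest gene, for B, plasma, dendritic cell and macrophage markers also the brightest, all genes behind counts of 5 or fewer called genes, and genes marked as named after their values were seen, to which Srf, Nfat5, Prdm1, Klrg1, Itgae, Vcam1, S100a8 and the genes named as below the floor belong. Cd79b, Spib, Fcer2a, Ms4a1, Bst2, Siglech and Itgax were also named after their values were seen. The members and lists were chosen with earlier results of these data known. Likeness between gene patterns was not computed, since 2 arrays give 1 ratio per gene. Alternatives changed the floor, the probe sets, the scaling and the fold. The number of arrays limits the precision. Python 3.11.15 with pandas and numpy was used, and sequences come from RefSeq (GRCm38.p6).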

Additional observations from a re-analysis of the deposited data

How the results depend on the processing

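No member was at least 2-fold higher in DNR Tregs under any of the 9 alternatives. The number at least 2-fold lower was 0 in the main setting and 1 (Jun) with the median over probe sets and with quantile scaling. At a threshold of 1.5-fold, 1 member (Jun) was called lower. The median log2 ratio of the members lay between 0.10 and 0.20 in the 7 settings run for it. It moved only with the median over probe sets and with the scalings. Counts over all measured genes depended on the floor and the threshold, being 477 higher and 350 lower in the main setting. A floor at the 40th percentile gave 1026 and 550, no floor 1637 and 857, a threshold of 1.5-fold 1526 and 1175, and one of 3-fold 56 and 63. A floor at the 60th percentile gave 250 higher and 246 lower genes. No paired analysis was possible because there was 1 array per genotype. No array could be left out for the same reason. Signal over background limits the dimmer probe sets of Irf4, Fosl2 and Jund.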
